A study of Mus musculus with 4 samples.

Results

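The meiotic chromosome axis and synapsis genes examined here are 10 genes, Smc1b, Sycp1, Sycp2, Sycp3, Syce1, Hormad1, Hormad2, Tex11, Majin and Hsf2bp, among the 24116 genes of the count table. They were picked by name, with earlier results of these data known. Each was found through the Entrez gene number that carries its symbol. All 10 had a row in the table, and all 10 passed the filter on low counts that left 14194 genes for testing. RNA was sequenced from mouse embryonic stem cells of the strain labelled 12910la, in 2 libraries of wild-type cells and 2 libraries of cells with Kdm2a targeted by a guide RNA. All cells were grown without a feeder layer, on gelatin, in medium with serum and the cytokine LIF, which holds them in a pluripotent state. The targeted line came from 1 clone, so its genotype and the properties of that clone cannot be told apart. Titles name these cells a knockout, but the genotype label of the same samples names a knock-down.

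Germ cells in meiosis rebuild each chromosome around a protein axis. Cohesin rings with meiosis-specific subunits, among them SMC1B, hold sister chromatids together, and SYCP2, SYCP3 and the HORMA-domain proteins HORMAD1 and HORMAD2 assemble along them. SYCP1 then spans the gap between homologous axes like the teeth of a zipper, SYCE1 stabilises the middle of that zipper, MAJIN ties telomeres to the nuclear envelope, and TEX11 and HSF2BP act in the repair of meiotic DNA breaks. Embryonic stem cells do not undergo meiosis, and many genes of this programme are kept low in them by DNA methylation and by the Polycomb complex PRC1.6, which binds through MGA-MAX and E2F6. KDM2A removes methyl groups from lysine 36 of histone H3 and binds unmethylated CpG-rich DNA through its CXXC domain.

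Total counts lay between 18844246 and 19056529 a library, and the limit of 3 counts that a count of 0 allows came to 0.156 to 0.165 CPM (counts scaled to a common library size after TMM, a correction for library composition). This limit and the Poisson intervals given later cover counting error alone. No label states that the samples within a group were grown as separate cultures, and the p-values therefore measure a spread between libraries that may be technical. Kdm2a itself had 2899 and 3554 wild-type counts against 3710 and 4753 under the knockout label, hence each direction stated here rests on the labels. Both groups carried the pluripotent cell markers, with summed levels of 6656 to 6921 CPM over the 10 markers in wild type and 6166 to 7223 CPM in the others. By CPM, which is not corrected for gene length, Tdgf1 and Esrrb led them. Of the fibroblast markers, Lum was at 0 in all libraries and Col3a1, Dcn and Postn had at most 3 counts in any. Other markers on that list were detected, with 699 and 316 counts in wild type, 593 in knockout 1 and 323 in knockout 2 for Thy1, and 841, 320, 504 and 180 in the same order for Pdgfrb.

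No single member passed the test across all genes. The edgeR quasi-likelihood test called 0 of the 10 at an adjusted p under 0.05, and it also called 0% of all genes tested. DESeq2 called 0 of the 10 as well, against 0.0141% of all genes (2 genes). At an unadjusted p under 0.05 there were 2 members, Smc1b and Hormad1, both lower in the libraries labelled knockout, where 0.817% of all genes passed that mark as lower, and 0 members as higher, where 0.888% did. For 8 of the 10 members the log2 fold change (knockout minus wild type) was negative, compared with 49.5% of all genes. The median was -0.47 over the members and 0.0029 over all genes. As the members were chosen with earlier results of these data known, these values describe the list and are no test. By library, the members' median difference from the wild-type mean was -0.34 in knockout 1 and -0.65 in knockout 2, while wild type 2 lay 0.29 above wild type 1 on the same log2(CPM + 0.5) scale. Leaving out knockout 1 gave 91 calls over the whole table (0.618% of genes tested) and leaving out knockout 2 gave 8 (0.0549%), none of them a member, and the members' median without knockout 1 was -0.81.

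In 3 members, Smc1b, Hormad1 and Hormad2, both libraries labelled knockout lay below both wild-type libraries, a pattern that 12.7% of all genes showed. The opposite pattern was seen in 0 members and in 11.7% of all genes. With 1 library fewer this pattern is easier to meet by construction. It then held as lower for 5 members without wild type 1, 4 without wild type 2, 6 without knockout 1 and 6 without knockout 2, and as higher for 1, 0, 2 and 2 members in the same order. The share over all genes was not taken with 1 library left out, and 12.7% and 11.7% do not apply there. These numbers therefore have no background to be read against.

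**Figure D1:**
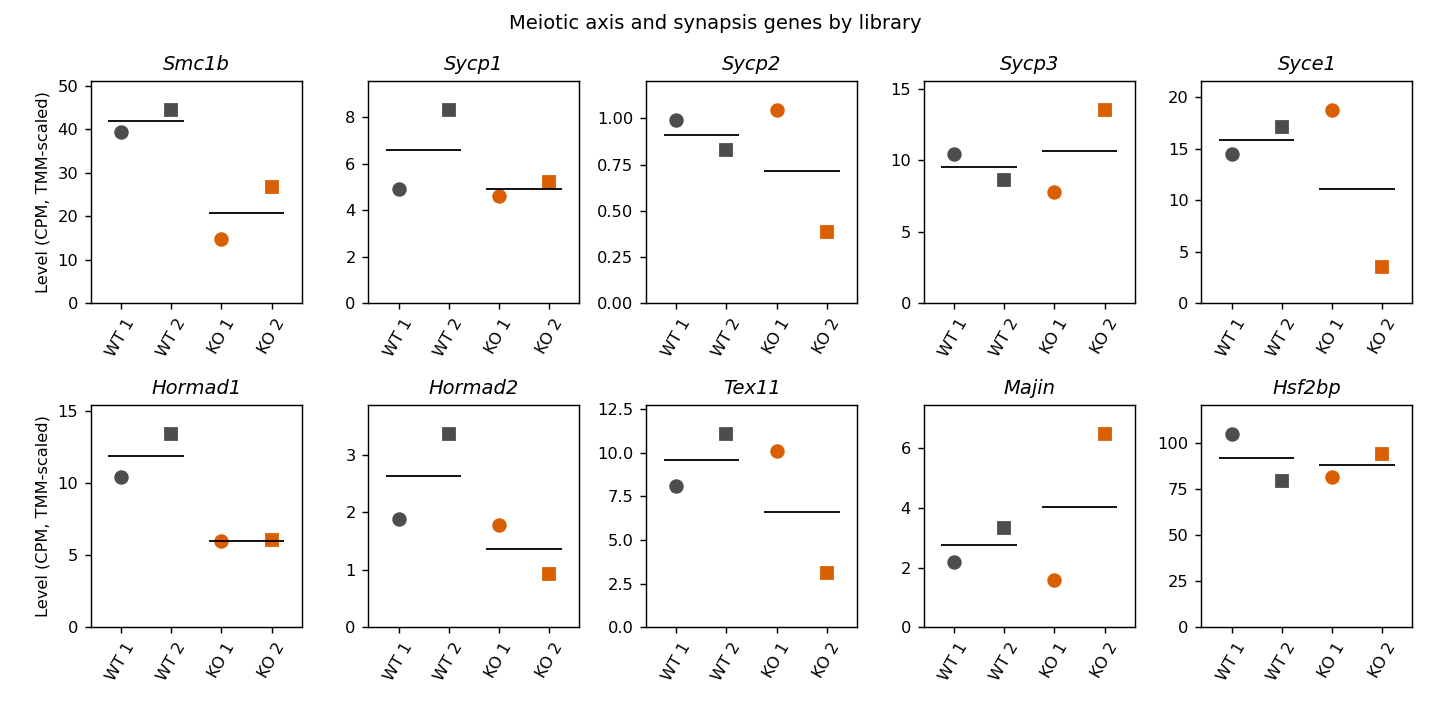
Level of each member in CPM on the vertical axis (TMM-scaled, from 0, a separate scale per gene) in wild type (WT, grey) and the libraries labelled knockout (KO, orange), circles for number 1 and squares for number 2, with group means as lines. Smc1b, Hormad1 and Hormad2 are the genes whose KO points both lie under both WT points, and in Syce1 and Tex11 the KO points lie far apart, at 18.7 against 3.52 CPM and at 10.1 against 3.13 CPM.

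Smc1b had the lowest unadjusted p among the members. This gene encodes the meiosis-specific version of the cohesin ATPase SMC1 and lies on chromosome 15 (GRCm38.p6, 85064689 to 85131957, minus strand). It had 754 and 857 wild-type counts against 284 in knockout 1 and 488 in knockout 2. In CPM these were 39.4 and 44.4 against 14.8 and 26.8, so the highest knockout library stood well under the lowest wild-type library. The wild-type mean was 41.9 ± 3.56 CPM, and the mean under the knockout label 20.8 ± 8.47 CPM (SD, n = 2 each). The log2 fold change was -1.01 (SE 0.35; edgeR adjusted p = 1.00, unadjusted p = 0.0229), and it lay between -1.50 and -0.65 when single libraries were left out. The gene Ribc2 starts 114 bases away on the other strand, and its 3 and 1 counts in wild type and 3 and 5 in the others were too few for a fold.

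Because Smc1b has a mitotic paralog, Smc1a, the level of one relative to the other can be read within a library, free of any scaling between libraries. RPKM, that is CPM per kilobase of exon, was used for this. Smc1b RNA amounted to 26.6% and 27.8% of Smc1a RNA in wild type, and to 9.64% in knockout 1 and 14.4% in knockout 2. The 2 groups did not overlap in this ratio, but an exact permutation test on 2 against 2 libraries cannot give a two-sided p under 0.3333. Smc1a itself had 4034 and 4397 wild-type counts against 4199 and 4838, a log2 fold change of 0.15 (SE 0.21). Stag3, the meiosis-specific arm subunit of cohesin, likewise was lower in both libraries labelled knockout. Its counts were 3222 and 3795 against 2643 and 1948, with a log2 fold change of -0.57 (SE 0.24; edgeR adjusted p = 1.00). In RPKM, Stag3 stood at 388% and 365% of its mitotic relative Stag1 in wild type against 251% and 243%, and at 256% and 259% of the relative Stag2 against 191% and 113%. Rec8, the meiotic kleisin that closes the ring, did not separate the groups. It had 598 and 419 counts in wild type, 550 in knockout 1 and 124 in knockout 2. Rad21l, another meiotic kleisin, had 1 and 2 counts against 0 and 0, at or under the limit of 3 counts.

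**Figure D2:**
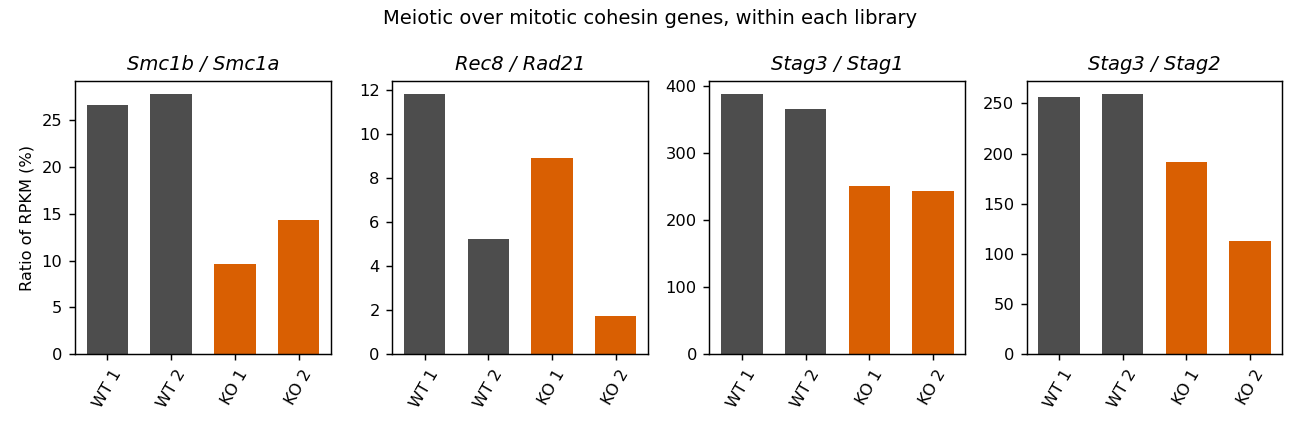
Ratio of the RPKM of a meiotic cohesin gene to that of a mitotic relative, in percent on the vertical axis (from 0), within each wild-type (WT, grey) and knockout-labelled (KO, orange) library. Both KO bars are under both WT bars for Smc1b over Smc1a and for Stag3 over Stag1 and Stag2, whereas Rec8 over Rad21 is 11.8% and 5.25% in WT against 8.91% and 1.74%.

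Both HORMA-domain genes had negative fold changes that did not pass the test, and they were measured with unequal precision. Hormad1, whose product marks unsynapsed axes and recruits the break machinery, lies on chromosome 3 (95559677 to 95587863, plus strand). Its counts were 199 and 259 in wild type against 114 and 110, or 10.4 and 13.4 CPM against 5.95 and 6.04 CPM. The libraries labelled knockout agreed closely with each other and stood at 50.0% (exact Poisson, 95%: 41.2 to 60.1) and 50.8% (41.7 to 61.2) of the mean in wild type. The log2 fold change was -0.99 (SE 0.38; edgeR adjusted p = 1.00, unadjusted p = 0.0364). Hormad2, which joins in checkpoint signalling from unsynapsed axes, lies on chromosome 11 (4345801 to 4441198, minus strand) and had 36 and 65 wild-type counts against 34 and 17. Although these groups do not overlap, wild type 1 and knockout 1 differed by 1.88 against 1.78 CPM, which is not detectable at this depth. Its log2 fold change was -0.95 (SE 0.63), and it was -0.46 without wild type 2, -1.49 without knockout 1 and -0.56 without knockout 2. Trip13, the ATPase that strips both HORMAD proteins from synapsed axes and also acts in mitosis, had 721 and 1233 counts against 1086 and 1186, with overlapping groups.

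The synaptonemal complex genes shared no pattern. Sycp3, a core of the axis beneath the zipper, lies on chromosome 10 (88459587 to 88473236, plus strand) and had 200 and 166 wild-type counts against 149 in knockout 1 and 246 in knockout 2. Thus 1 knockout library lay below and the other above wild type, and the log2 fold change of 0.16 (SE 0.42) turned to -0.29 without knockout 2. For this gene 660 of 1264 exon bases (52.2%) are shared with Chpt1 on the opposite strand in GENCODE M21. Reads in them cannot be assigned unless counting used strand, which no source used here states. Chpt1 had 208 and 196 wild-type counts against 192 and 187. Sycp2, the partner of SYCP3 in the axis, lies on chromosome 2 (178345295 to 178407776, minus strand) and had few reads, with 19 and 16 counts against 20 and 7. Its log2 fold change of -0.34 (SE 0.73) turned to 0.20 without knockout 2.

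Sycp1, the transverse filament of the zipper, lies on chromosome 3 (102818499 to 102936100, minus strand). Its counts were 94 and 160 in wild type against 88 and 95, so wild type 1 and both libraries labelled knockout were alike and wild type 2 alone was high. The log2 fold change was -0.43 (SE 0.46), and it was 0.0067 without wild type 2.

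Syce1 separated the libraries of the knockout label from each other rather than from wild type. This gene of the central element lies on chromosome 7 (140777229 to 140787854, minus strand) and had 278 and 330 counts in wild type, 359 in knockout 1 and 64 in knockout 2. Knockout 2 reached 22.2% (exact Poisson, 95%: 17.1 to 28.4) of the mean in wild type, and knockout 1 at 119% (107 to 132). The log2 fold change of -0.50 had an SE of 0.69 and turned to 0.25 without knockout 2. Tex11, an X-linked gene (100838648 to 101059639, minus strand) whose product promotes crossovers and synapsis, had the same shape. It had 155 and 214 counts in wild type, 193 in knockout 1 and 57 in knockout 2. Its level in knockout 2 was 32.6% of the wild-type mean (24.7 to 42.3), and its log2 fold change of -0.54 (SE 0.59) turned to 0.07 without that library.

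A library-wise pattern of this kind, knockout 2 below 0.5 of every other library, was met by 3 members (Syce1, Tex11 and Sycp2) and by 5.23% of all genes. It was defined after the values were seen. Outside the members, it held for 9 of 52 tested genes of the other meiosis lists, and for 0 of 33 in the mitotic cohesin and repressor lists. The 9 were Rec8, Syce3, Meiob, Mcmdc2, Msh5, Stra8, Taf7l, Tex15 and Meioc. Several of these had few reads, such as Meiob with 19 and 18 counts against 19 and 0. All 33 had at least 100 counts in every library, so the lists were not matched for depth. Marker lists were not counted. Of the primordial germ cell markers, Dnd1 (564 and 558 counts against 525 and 226) and Dppa3 (44 and 40 against 29 and 4) also met the pattern, and no other on that list did. The summed markers of 2-cell-like cells, a rare state in such cultures, were also lowest in knockout 2, and they differed between the wild-type libraries. The summed level of the 11 such markers in the table was 12.0 and 23.1 CPM in wild type, 22.5 CPM in knockout 1 and 4.83 CPM in knockout 2. Of these markers Gm4340 was at 0 and Tcstv1 and Tdpoz1 had at most 3 counts in all libraries, while Zscan4d had 79 and 181 counts against 154 and 34, and Zscan4c 53 and 80 against 116 and 21. Fibroblast markers summed to 103 and 44.8 CPM against 71.4 and 34.3 CPM. Primitive endoderm markers summed to 178 and 123 CPM against 138 and 198 CPM, and they did not share a pattern. Of these, picked after their values were seen, Sox7 had 5 and 12 counts in wild type, 11 in knockout 1 and 60 in knockout 2. Foxa2, also picked so, had 1 and 0, then 1 and 59. In the same order Sox17 had 14, 3, 6 and 1 counts, Gata6 52, 11, 48 and 27, and Gata4 134, 50, 75 and 117. The part of these markers in the levels of Syce1, Tex11 and Sycp2 was not tested. In bulk RNA, fewer cells that express a gene and less of its RNA per cell cannot be told apart.

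Majin was the member with the highest level in knockout 2 relative to wild type. It encodes the membrane anchor that links telomeres to the inner nuclear envelope, and lies on chromosome 19 (6184345 to 6224230, plus strand), 1.79 Mb from Kdm2a. Counts were 42 and 64 in wild type, 30 in knockout 1 and 118 in knockout 2. Knockout 2 thus stood at 235% (195 to 282) and knockout 1 at 56.9% (38.4 to 81.2) of the wild-type mean. The log2 fold change of 0.54 (SE 0.73) turned to -0.81 without knockout 2. Its partners in the attachment complex had few reads. Terb1 had 7 and 20 wild-type counts against 8 and 5, and Terb2 had 19 and 51 against 15 and 37.

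Hsf2bp was the most abundant member and had the fold change nearest to 0. Its product brings the recombinase loader BRCA2 to meiotic breaks, and the gene lies on chromosome 17 (31944769 to 32034895, minus strand). It had 2006 and 1524 wild-type counts against 1559 and 1706. Group means were 91.9 ± 18.2 CPM and 87.6 ± 8.71 CPM (SD, n = 2 each), so the groups differed by less than the spread within wild type. The log2 fold change was -0.07 (SE 0.25). Its partners overlapped between groups too. Brca2 had 2201 and 3178 counts against 2415 and 1872, Brme1, which binds HSF2BP in meiosis, 175 and 314 against 217 and 239, and Hsf2, the heat shock factor it was named for, 1081 and 1177 against 1130 and 1024. In GENCODE M21, 54 exon bases of Hsf2bp (1.5%) are shared with Rrp1b on the opposite strand.

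**Figure D3:**
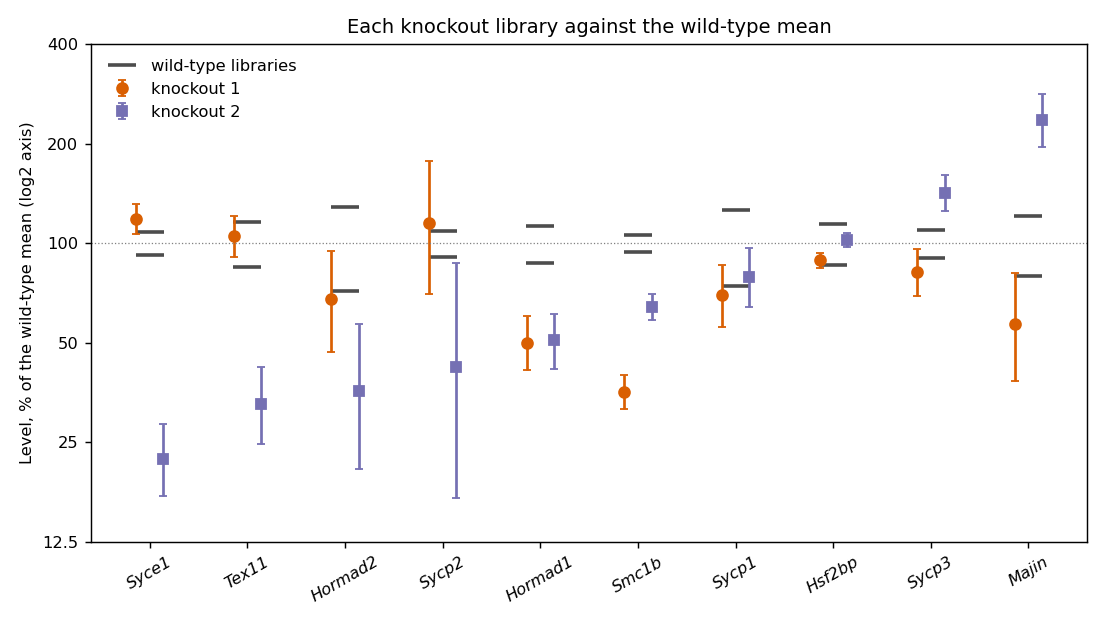
Level of each member in the libraries labelled knockout 1 (circles) and knockout 2 (squares) as a percentage of the wild-type mean, on a log2 axis, with 95% exact Poisson intervals of the knockout count alone, and both wild-type libraries as grey dashes; genes are ordered by knockout 2. Hormad1 has both symbols near 50%, whereas Syce1, with 119% and 22.2%, and Majin, with 56.9% and 235%, have them on opposite sides of 100%.

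Per exon length, the members spanned a wide range in wild type. Hsf2bp led at 25.6 ± 5.08 RPKM, followed by Syce1 at 10.8 ± 1.25 and Smc1b at 10.4 ± 0.879 RPKM (SD, n = 2 throughout), and the latter pair overlapped. Sycp3 at 7.53 ± 1.03 and Hormad1 at 6.89 ± 1.24 RPKM came next and overlapped each other, without reaching Smc1b. The place of Sycp3 is uncertain in both groups, because 52.2% of its exon bases are shared with Chpt1 and strand use is not stated. Tex11 at 2.65 ± 0.584 RPKM overlapped Sycp1 at 1.86 ± 0.673, which overlapped Majin at 1.68 ± 0.484 RPKM. Hormad2 at 0.960 ± 0.385 and Sycp2 at 0.153 ± 0.0193 RPKM were the lowest, each without overlap with the gene above it. In the libraries labelled knockout, Smc1b averaged 5.14 ± 2.09 RPKM and Hormad1 3.47 ± 0.0368 RPKM, and Sycp3, at 8.42 ± 3.21 RPKM, had the higher mean. For comparison, Rad21 and Smc3, from the list of mitotic cohesin subunits and regulators, averaged 115 and 56.2 RPKM in wild type.

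The sequence just before the start of 5 members is shown, since these carry or lack letters that PRC1.6 and other factors are known to read. RefSeq (GRCm38.p6) gave a start for 8 of the 10 members, and Tex11 and Majin were not matched. Each run reads 5′ to 3′ on the strand of the gene and ends at or shortly before its start, and stretches that GENCODE M21 annotates as exon were left out. Capitals mark the E-box CACGTG (the letters of MGA-MAX), the E2F letters TCCCGC, and TCTCGCGAGA (the letters of the methylation-sensitive factor BANP), searched on both strands in the 250 bases before the start, with no overlap between the 3 in these genes. The last motif was added after the sequences were seen. The runs are chr15:85131965-85132077 (minus strand) for Smc1b, chr3:95559427-95559676 (plus) for Hormad1, chr3:102936101-102936350 (minus) for Sycp1, chr10:88459337-88459568 (plus) for Sycp3 and chr7:140787855-140788104 (minus) for Syce1.
Smc1b: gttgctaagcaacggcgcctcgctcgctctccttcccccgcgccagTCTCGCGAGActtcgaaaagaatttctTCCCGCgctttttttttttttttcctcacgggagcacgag
Hormad1: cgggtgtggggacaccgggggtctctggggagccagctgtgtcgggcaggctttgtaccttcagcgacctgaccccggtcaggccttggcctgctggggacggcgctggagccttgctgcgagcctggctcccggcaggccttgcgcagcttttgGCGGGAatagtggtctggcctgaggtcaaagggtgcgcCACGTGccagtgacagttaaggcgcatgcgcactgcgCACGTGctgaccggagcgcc
Sycp1: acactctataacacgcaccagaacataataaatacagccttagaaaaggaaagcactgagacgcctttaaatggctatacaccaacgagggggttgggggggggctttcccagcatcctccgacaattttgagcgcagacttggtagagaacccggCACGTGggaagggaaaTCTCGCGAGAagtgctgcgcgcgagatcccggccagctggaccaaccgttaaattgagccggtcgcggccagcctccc
Sycp3: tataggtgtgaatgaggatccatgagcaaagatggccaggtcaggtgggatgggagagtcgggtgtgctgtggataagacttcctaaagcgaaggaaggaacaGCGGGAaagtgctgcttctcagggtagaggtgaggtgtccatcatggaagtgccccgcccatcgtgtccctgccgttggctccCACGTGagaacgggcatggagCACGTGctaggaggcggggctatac
Syce1: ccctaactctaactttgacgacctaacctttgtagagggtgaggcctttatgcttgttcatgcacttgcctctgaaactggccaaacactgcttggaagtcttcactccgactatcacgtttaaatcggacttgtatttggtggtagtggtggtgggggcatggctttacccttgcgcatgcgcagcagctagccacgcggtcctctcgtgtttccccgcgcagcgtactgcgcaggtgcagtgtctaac

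E-box letters were in 3 of the 8 windows (Hormad1, Sycp1 and Sycp3) and in 6.02% of 32817 windows of the same length before RefSeq starts. Hormad1 held 2, beginning 57 and 20 bases before the start, Sycp3 held 2, at 64 and 43 bases, and 0.43% of all windows held more than 1. E2F letters were in 4 (Smc1b, Hormad1, Sycp3 and Hsf2bp) against 16.9% of all windows. Hormad1 and Sycp3 had both kinds, as did 1.44% of windows. Hormad1 RNA was low in both libraries labelled knockout and Sycp3 RNA lay on both sides of wild type. A link between these letters and RNA was not tested. The third motif was in Smc1b, 74 bases before the start, in Sycp1, 78 bases before it, and in 0.39% of all windows. Syce1, Sycp2 and Hormad2 held none of the 3. The ratio of observed to expected CpG was above the median of all windows (0.373) in 7 of 8, and was 1.215 in Smc1b, 0.893 in Sycp1 and 0.671 in Hormad1, while Hormad2 was at 0.412 and Sycp2 at 0.307. A match of letters is a description of these windows and shows no binding.

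Other genes were read from 10 further lists, of which 85 genes were tested, 52 in lists of the meiotic programme and 33 in the lists of mitotic cohesin genes and of germline gene repressors. The quasi-likelihood test called 0 of them higher and 0 lower with all 4 libraries, and without knockout 1 it called 2, Dazl and Stra8, both lower, where 0.109% of all genes were called lower. Of the other central element genes, all 4 tested had negative fold changes (49.5% of all genes) and 3 were below wild type in both libraries (12.7% of all genes). These separations were narrow or rested on few reads. Syce2, a core of the central element and the one with the highest CPM, had 1720 and 1445 counts against 1347 and 1356. In CPM its wild type 2 and knockout 2 were nearly alike, at 74.9 and 74.5. Syce1l had 19 and 22 counts against 13 and 12. Syce3, which links SYCP1 to the central element, had 35 and 12 counts against 9 and 4, Six6os1, another central element gene, 184 and 365 against 139 and 204, and Tex12, the partner of SYCE2, 9 and 4 against 3 and 1.

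Meiotic entry regulators had the lowest median of all 10, at -1.03, with 5 of 7 tested genes below wild type in both libraries labelled knockout, against 12.7% of all genes. As the lists were chosen with earlier results of these data known, this rank is a description and no test. Sohlh2, a germ cell transcription factor, had 1827 and 2203 wild-type counts against 892 and 641, and Meioc, which sustains meiotic prophase, 1201 and 1054 against 1018 and 414. The double-strand break genes went both ways. In both libraries labelled knockout 3 of 6 were lower and 2 higher, against 12.7% and 11.7% of all genes, with Rec114, an essential break factor, at 162 and 114 counts against 103 and 66, and Zcwpw1, a reader of PRDM9 marks, at 810 and 705 against 827 and 911. Spo11, the enzyme that makes the breaks, had 0 counts in every library.

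Mitotic cohesin subunits and regulators had a median of 0.12, with 0 of 14 genes below wild type in both libraries and 3 above, against 12.7% and 11.7% of all genes. Smc3 had 5839 and 6135 counts against 6368 and 6063, and Rad21 had 7296 and 11505 against 8896 and 10276. The median was -0.05 for the list of strand exchange genes, which included the helicase gene Helb. It was -0.04 for the list of axis surveillance genes, which included Brca1 and Skp1. Telomere attachment genes had a median of -0.13, and those with the highest CPM were Sun1, a nuclear envelope bridge, and Cdk2, a kinase. Of the proteins that act with TEX11, Msh4 had 14 and 15 counts against 13 and 22, Msh5 had 28 and 56 against 22 and 8, and Shoc1 was not analysed here. The 19 germline gene repressors, with Dnmt1 and Uhrf1 the highest in CPM, had a median of 0.10, with 1 gene below and 2 above wild type in both libraries, against 12.7% and 11.7% of all genes.

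**Figure D4:**
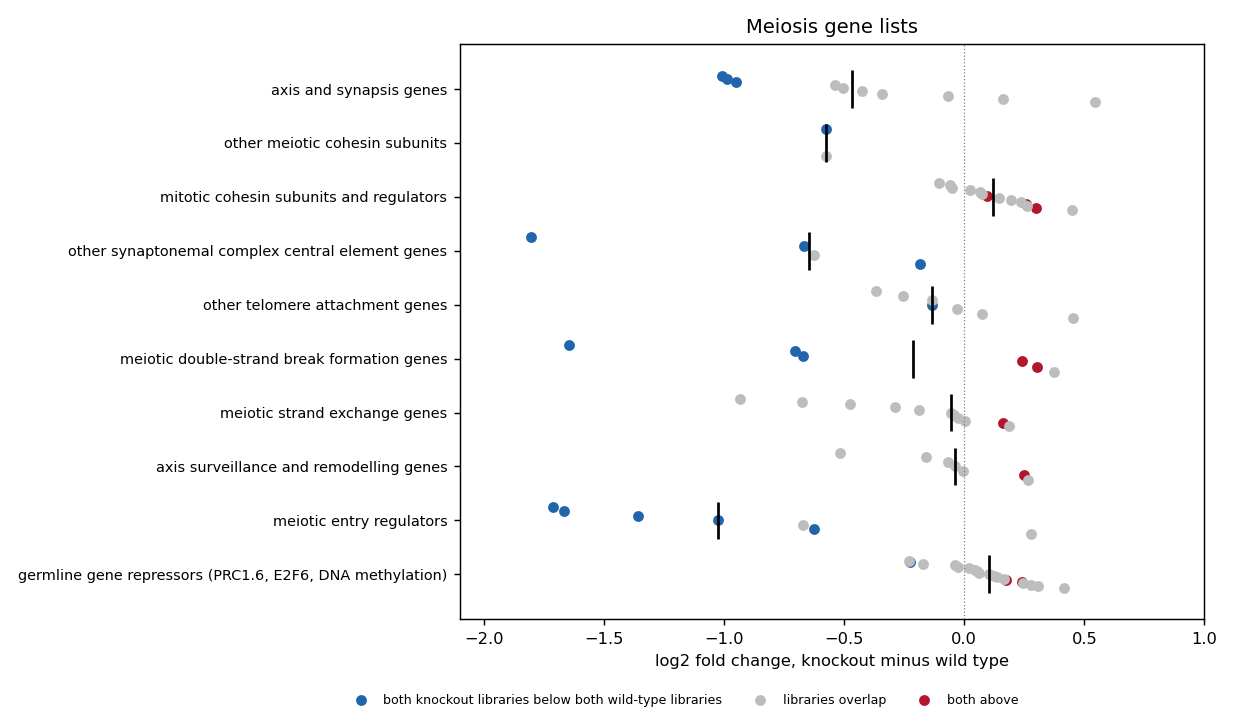
Log2 fold change (knockout minus wild type, horizontal axis) of each tested gene, 1 row each for the members and 9 of the other lists (crossover genes are not shown), blue where both libraries labelled knockout lie below both wild-type libraries, red where both lie above, grey where they overlap; black bars are medians. The medians of the axis and synapsis genes (-0.47), the other central element genes (-0.65) and the entry regulators (-1.03) lie left of 0, and those of the mitotic cohesin genes (0.12) and the repressors (0.10) lie right of it.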

How the data were processed

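The authors deposited whole-number read counts per gene, 1 column for each of 4 libraries, with no normalization. HISAT2, featureCounts and mm10 are named in the submitters' processing notes. Tool versions, gene annotation, strand use and the treatment of reads with several matches remain not given in the sources used here. Columns were matched to samples by group and number.

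Of 24116 Entrez numbers, 24061 matched a symbol in RefSeq (GRCm38.p6). Genes were filtered with filterByExpr, scaled by TMM and tested across all genes with edgeR 4.0.16 (R 4.3.3, quasi-likelihood F test, genotype alone) with Benjamini-Hochberg adjustment and a threshold of 0.05. The SE is the absolute log2 fold change over the square root of F. Alternatives used other scalings and filters, DESeq2 1.42.0, limma-voom (3.58.1), the likelihood ratio test, a prior count of 2, a replicate block and each library left out. Exon lengths come from GENCODE M21. Fits were tested on simulated data.

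The members and lists were chosen with earlier results of these data known. All members were named, as were set partners of theirs, and otherwise the 2 tested genes with the highest mean CPM of each list with no call. The summary of the list of crossover genes is not reported here. The libraries share replicate numbers only by title.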

Additional observations from a re-analysis of the deposited data

How the results depend on the processing

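Other scalings, filters, tests and prior count, and the replicate block, left the sign of each member's fold change as it was. The 8 turns of sign among 139 such values all came from leaving out 1 library, where the range was -0.76 to 0.0067 for Sycp1, -1.23 to 0.20 for Sycp2, -0.29 to 0.50 for Sycp3, -2.17 to 0.25 for Syce1, -1.62 to 0.072 for Tex11, -0.81 to 1.23 for Majin and -0.25 to 0.15 for Hsf2bp. Smc1b (-1.50 to -0.65), Hormad1 (-1.16 to -0.78) and Hormad2 (-1.49 to -0.46) kept a negative sign in all of these fits. The members' median was -0.81 to -0.33 with 1 library left out and -0.59 with the replicate block. No alternative with all 4 libraries called a member. The lowest adjusted p of these was 0.888, for Smc1b and Hormad1 in the edgeR quasi-likelihood fit with the replicate block. Fits with 1 library left out keep 1 library in a group, so their p-values do not measure spread within it. Neither these p-values nor calls from them are given.

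Over all genes the quasi-likelihood count of 0 became 2 with DESeq2 and 4 with the likelihood ratio test, and 0 to 91 with 1 library left out. The members separated as lower numbered 4 to 6, and as higher 0 to 2, with 1 library left out. No share over all genes was taken beside these numbers. The replicate block called 0 genes. Differences between numbers 1 and 2 correlated at r = 0.347 across genes between the groups, which is 1 value for 2 pairs and pairs nothing by design. Sycp2 was not tested with at least 1 CPM required in 2 libraries.

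Depth limits Sycp2, Hormad2 and Majin, with at most 118 counts in any library, and 2 libraries a group limit all tests.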

Other observations

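Primordial germ cell markers, the cells from which meiotic cells descend, did not share a direction. Their summed level was 337 and 284 CPM in wild type against 308 and 295 CPM. Kit, a receptor kinase, and Tfap2c, a germ cell specifier, had the highest CPM, with 3348 and 2982 counts against 3261 and 2181 for Kit and 1268 and 446 against 833 and 1365 for Tfap2c. Chosen after their values were seen, Nanos3, an RNA-binding germ cell factor, had 6 and 9 wild-type counts against 19 and 26, and Dppa3, a maternal factor marking these cells, had 44 and 40 against 29 and 4. Among the primitive endoderm markers, Lama1 and Col4a1, genes of the basement membrane, had the highest CPM, with 1931 and 1353 counts against 1684 and 2270 for Lama1 and 1212 and 892 against 747 and 1008 for Col4a1.

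Among the germline gene repressors, Mga, the DNA-binding core of PRC1.6, had 5145 and 6412 counts in wild type, 5221 in knockout 1 and 9614 in knockout 2. Its log2 fold change was 0.41 (SE 0.33; edgeR adjusted p = 1.00). It was picked after its values were seen.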
